A study of Mus musculus with 6 samples.

Results

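The immunity-related GTPases described here are the 5 mouse genes Irgm1, Irgm2, Igtp, Iigp1 and Gm4951, of 20848 genes measured. Their members were 14 of the 213361 probe sets that carried a single gene symbol: 3 for Irgm1, 1 for Irgm2, 4 for Igtp, 5 for Iigp1 and 1 for Gm4951. The probe sets of a gene were averaged on each array. The genes were chosen by their family, with their differences between TGF-β3 and vehicle and between sample numbers already known, so those values are given as a description with no test of the members. The series measured RNA of EpH4 cells, a mouse mammary epithelial line, on Affymetrix mouse gene arrays. The cells had stood confluent for 7 days and formed tight junctions before 24 hours in serum-free medium with either TGF-β3 at 1 ng/ml or vehicle. There were 3 vehicle and 3 TGF-β3 arrays, numbered 1 to 3 in each group, and each sample pooled the RNA of 3 wells from 1 experiment. A single cell line was used, with no other genotype.

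Immunity-related GTPases are enzymes that interferons, above all interferon gamma, switch on in mouse cells. Irgm1, Irgm2 and Igtp (also called Irgm3) belong to the regulatory branch, which sits on the cell's own membranes and keeps the effector branch inactive there. Iigp1 (also called Irga6) belongs to the effector branch, which coats and breaks the vacuoles of intracellular parasites such as Toxoplasma. Gm4951 is listed under the synonym Ifgga2, next to Iigp1 (Ifgga1) in the interferon gamma induced GTPase nomenclature, and its own role is less studied. Transcription of the family is driven by interferon signalling through promoter elements that include the gamma-activated site (GAS) and the interferon-stimulated response element (ISRE), the latter bound by interferon regulatory factors.

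The 3 regulatory genes are shown by their promoters, because these were the members matched in the promoter table and they hold sequence in common. RefSeq promoter windows, 250 bases before to 50 bases after the start in build GRCm38.p6, were matched for 3 of the 5 genes. Capitals mark matches to an ISRE core spelled GAAANNGAAA or to the GAS spelled TTCNNNGAA, searched on both strands. The windows are chr11:48871371-48871670 on the minus strand for Irgm1, chr11:58214727-58215026 on the plus strand for Irgm2 and chr11:58199306-58199605 on the plus strand for Igtp.
Irgm1: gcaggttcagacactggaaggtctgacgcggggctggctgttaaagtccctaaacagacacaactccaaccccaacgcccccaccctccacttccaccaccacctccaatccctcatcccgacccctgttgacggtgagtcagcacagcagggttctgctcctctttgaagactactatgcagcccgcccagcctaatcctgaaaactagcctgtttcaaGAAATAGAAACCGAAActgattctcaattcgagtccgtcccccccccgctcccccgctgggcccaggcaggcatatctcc
Irgm2: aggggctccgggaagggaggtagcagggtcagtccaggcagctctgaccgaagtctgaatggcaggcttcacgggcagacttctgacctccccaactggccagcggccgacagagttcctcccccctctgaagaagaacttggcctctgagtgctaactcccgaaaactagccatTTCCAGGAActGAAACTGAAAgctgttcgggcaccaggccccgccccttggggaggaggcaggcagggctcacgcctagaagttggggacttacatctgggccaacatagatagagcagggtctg
Igtp: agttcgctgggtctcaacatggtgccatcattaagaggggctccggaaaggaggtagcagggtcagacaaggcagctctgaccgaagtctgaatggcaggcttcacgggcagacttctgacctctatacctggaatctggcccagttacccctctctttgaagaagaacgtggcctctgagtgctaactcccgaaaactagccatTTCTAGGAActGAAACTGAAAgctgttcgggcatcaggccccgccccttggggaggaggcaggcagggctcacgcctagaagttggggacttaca

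The ISRE core was in 3 of these 3 promoters and in 3.44% of all 32851 windows. Irgm1 held it in overlapping copies, the first of which began at position -30 from the start. In Igtp it began at -34 and in Irgm2 at -64. The GAS spelling reads the same on both strands. It was in Igtp and Irgm2, with 2 bases between it and the ISRE core in each, and in 8.3% of all windows. It was not in the Irgm1 window. Igtp and Irgm2 are direct neighbours in the reference gene table, and their windows were 92.1% identical over 265 aligned bases, with an identical run of 61 bases. All 3 windows also held the 11 bases gaaaactagcc, with 8 bases between them and the first ISRE core in Irgm1 and 13 in Igtp and Irgm2. This run was picked because the 3 share it. It was found in 4 of all windows (0.0122%), which besides these 3 included that of Jkamp.

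Most but not all of 10 markers of mammary epithelium had high signals. Epcam, an epithelial adhesion gene, averaged 9.85 ± 0.06 on the log2 scale over the vehicle arrays and 9.92 ± 0.09 over the TGF-β3 arrays (SD, n = 3). Krt8, a simple epithelial keratin gene, averaged 11.76 ± 0.04 and 11.82 ± 0.08 (SD, n = 3). Krt19, another keratin gene, at 4.87 to 4.98, and Elf5, a factor of the luminal lineage, at 4.98 to 5.24, lay at the level of the lower quartile of all probe sets. The mean of 10 macrophage markers lay between 5.54 and 5.71 on the vehicle arrays and between 5.58 and 5.63 on the TGF-β3 arrays, although single markers lay higher, with Cd14 at 7.27 to 7.69, Cd68 at 6.76 to 7.14 and Csf1r at 6.37 to 7.18. That of 10 T and NK cell markers lay between 5.13 and 5.32 and between 5.04 and 5.08. The lower quartiles of the arrays' probe sets lay at 5.01 to 5.06, and no detection calls were used here, so a low signal cannot be called absent. Of 8 fibroblast markers, Postn, Col1a1 and Col1a2 had high signals, with Postn at 11.26 to 11.39 over the arrays. The others were lower. Dcn at 4.24 to 4.43 and Lum at 4.24 to 4.57 lay below those lower quartiles. Thy1 stood at 5.25 to 5.65, Col3a1 at 5.84 to 6.12 and Pdgfra at 6.63 to 7.00. Less RNA per cell and fewer cells of a kind cannot be told apart in such bulk RNA. The vehicle 3 array had a narrower spread of gene signals (SD 1.58) than the other arrays (1.68 to 1.74).

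Among the regulatory GTPases, Irgm1, which acts in the clearance of intracellular bacteria and in autophagy, had log2 signals of 10.19, 9.27 and 9.05 on vehicle arrays 1, 2 and 3. On TGF-β3 arrays 1, 2 and 3 they were 10.34, 9.81 and 9.61. Both number 1 arrays were the highest, the TGF-β3 array was above the vehicle array within every number, and the groups overlapped because vehicle 1 was above TGF-β3 2 and 3. The group means were 9.50 ± 0.60 and 9.92 ± 0.38 (SD, n = 3), a difference of 0.42 with an SE of 0.28. This SE and those of the other members are limma's moderated ones, from a fit without a block. They draw on the spread of all genes beside that between numbers, and are smaller than the SDs of each member alone would give. With the sample number as a block, which compares arrays within numbers, the SEs were smaller. They were 0.10 for Irgm1, 0.11 for Irgm2, 0.13 for Igtp, 0.11 for Iigp1 and 0.11 for Gm4951. The members were chosen with these differences known, so no SE here serves as a test.

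Irgm2, a regulator on Golgi membranes, had signals of 8.50, 7.68 and 7.09 on vehicle arrays 1, 2 and 3. The TGF-β3 arrays gave 8.68, 8.13 and 7.85. The order of the 6 arrays was that of Irgm1, and the groups again overlapped. The means were 7.76 ± 0.71 and 8.22 ± 0.42 (SD, n = 3), which differed by 0.46 (SE 0.32).

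Igtp, a regulator on the endoplasmic reticulum, varied most of the regulatory genes. Its vehicle signals were 9.03, 7.58 and 7.10 for numbers 1, 2 and 3. Its TGF-β3 signals were 9.23, 8.41 and 7.99. The vehicle arrays alone spanned 1.93 log2 units, which is more than the difference of 0.64 (SE 0.46) between the means. Those means were 7.90 ± 1.01 for vehicle and 8.54 ± 0.63 for TGF-β3 (SD, n = 3).

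The effector gene Iigp1 had vehicle signals of 6.86, 5.49 and 5.67 and TGF-β3 signals of 7.36, 6.04 and 5.65 for numbers 1, 2 and 3. Number 1 was again highest in both groups, but in number 3 the TGF-β3 array lay just below the vehicle array. The means were 6.01 ± 0.75 and 6.35 ± 0.89 (SD, n = 3), a difference of 0.34 (SE 0.45). In number 3, 2 of its 5 probe sets were lower with TGF-β3, 10455966 by a small step (-0.11) and 10455962 by a large one (-1.15). The latter read 7.61 on vehicle 3 and 6.46 on TGF-β3 3 and was the only one of the 14 probe sets to be highest on vehicle 3. Without 10455962, an omission chosen after seeing the data, Iigp1 read 5.18 on vehicle 3 and 5.45 on TGF-β3 3, and its arrays took the order of the other genes. The difference of means was then 0.46.

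Gm4951 had the widest range, 2.35 log2 units over the 6 arrays. Its vehicle signals were 8.13, 6.65 and 6.16 and its TGF-β3 signals 8.51, 7.58 and 6.95 for numbers 1, 2 and 3. Every number had the TGF-β3 array above the vehicle array, and vehicle 1 lay above TGF-β3 2 and 3. The means were 6.98 ± 1.02 and 7.68 ± 0.78 (SD, n = 3), a difference of 0.70 (SE 0.50), or 1.63-fold.

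**Figure D1:**
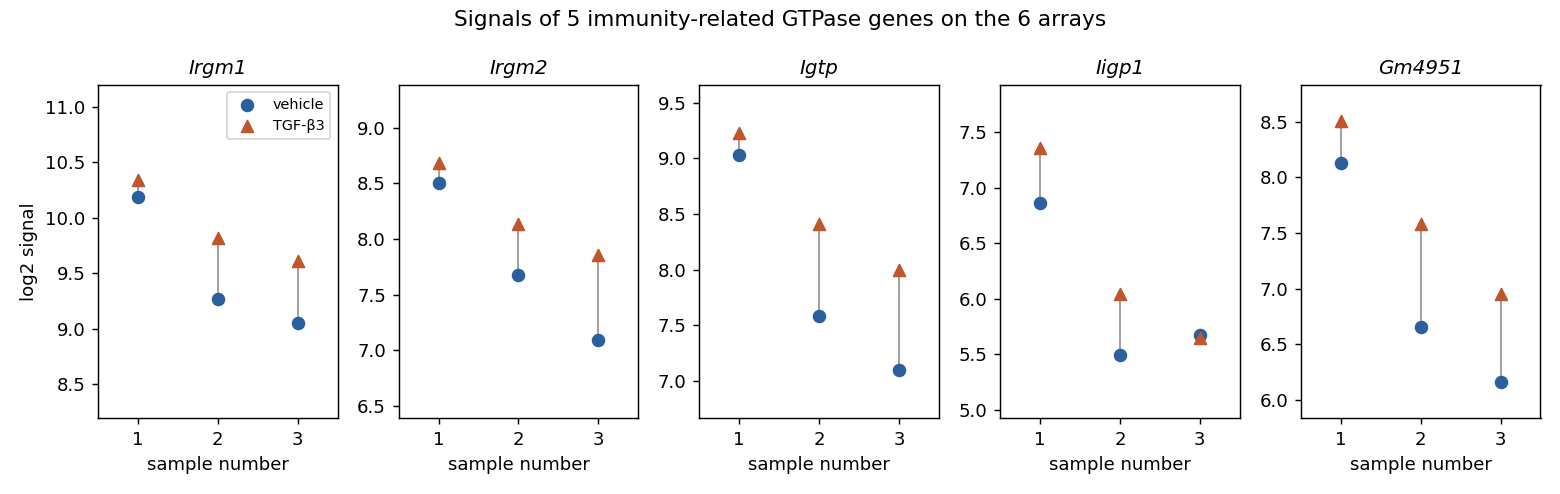
Log2 signal (vertical axis, each panel spanning the same number of log2 units) of the 5 GTPase genes by sample number (horizontal axis); circles are vehicle arrays, triangles TGF-β3 arrays, and grey lines join arrays of the same number, with 1 array per point. Number 1 was highest in every panel, and the triangle lay above the circle except for Iigp1 in number 3.

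The order TGF-β3 1, vehicle 1, TGF-β3 2, TGF-β3 3, vehicle 2 and vehicle 3, from high to low, held in 4 of the 5 genes, and in 1.69% of all genes. This order was picked because it was the commonest among the 5, so its share among them is no test. Each place is 1 array, so single steps have no replicate error. Across the 6 arrays the genes correlated pairwise between 0.858 (Irgm2 with Iigp1) and 0.998 (Irgm1 with Igtp), or from 0.919 upward with the probe set of Iigp1 left out. These 10 correlations share the 6 arrays and their numbers and describe this pattern again.

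TGF-β3 arrays had higher GTPase signals than vehicle arrays of the same number, with Iigp1 in number 3 as the exception, and by less than number 1 differed from the others. The differences of means ran from 0.34 for Iigp1 to 0.70 for Gm4951, with a median of 0.46 against 0.01 for all genes. In number 1 the 5 genes differed by 0.15 to 0.49, in number 2 by 0.45 to 0.93 and in number 3 by -0.02 to 0.90. Irgm1, Irgm2, Igtp and Gm4951 had their smallest difference in number 1, where the vehicle signal was highest, and Iigp1 had its smallest in number 3. Whether the treatment difference depends on the number was not tested, since each number holds 1 array per group.

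Of the 5 genes, 4 were higher with TGF-β3 in all 3 numbers, as were 24.0% of all genes. The same 4 were so by at least 0.34, the lowest of the members' differences, where 0.686% of all genes were. The TGF-β3 arrays lay entirely above the vehicle arrays in 0 of the 5, and in 6.84% of all genes. In limma over all genes 0 of the 5 passed an adjusted p of 0.05, and so did 0.0% of 20848 genes (0 genes, with 1076 at an unadjusted p under 0.05). With a replicate block for the number, the residual spread of the members was smaller, for example an SE of 0.11 in place of 0.50 for Gm4951, and again 0 of the 5 passed, while 2 genes (0.00959%) did. Nothing is read from these counts, because the genes were chosen with this contrast known.

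The size of the treatment difference moved with single arrays, because leaving out 1 array leaves its number in only 1 group. The mean of the 5 genes was 7.63 ± 0.81 over the vehicle arrays and 8.14 ± 0.62 over the TGF-β3 arrays (SD, n = 3), which differ by 0.51. It was 0.97 without vehicle 1, 0.78 without TGF-β3 3, 0.20 without vehicle 3 and 0.17 without TGF-β3 1, and for Iigp1 the sign turned without TGF-β3 1 (-0.16). With whole numbers left out it was 0.63 without number 1, 0.44 without number 2 and 0.47 without number 3. Within numbers 1, 2 and 3 it was 0.28, 0.66 and 0.60. The number 3 value rests on vehicle 3, the array with the narrower spread of gene signals. Over all genes, differences between the 2 arrays of a number had an SD of 0.277 in number 3, 0.115 in number 1 and 0.157 in number 2. The part of this in the number 3 value was not tested.

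Number 1 had the highest GTPase signals in both groups. Averaged over the groups, number 1 exceeded numbers 2 and 3 by 0.83 for Irgm1, 0.90 for Irgm2, 1.36 for Igtp, 1.40 for Iigp1 and 1.48 for Gm4951, which is 1.78-fold to 2.79-fold. In the vehicle arrays alone the 5 genes gave 1.03 to 1.72, and in the TGF-β3 arrays alone 0.63 to 1.51. The gap was wider in vehicle than in TGF-β3 for Irgm1, Irgm2, Igtp and Gm4951, and narrower for Iigp1 (1.28 against 1.51). Their vehicle arrays spanned 1.14 to 1.97 log2 units, where the median span of all genes was 0.25.

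Number 2 lay above number 3 by 0.11 for Iigp1 to 0.56 for Gm4951 as means of the 2 arrays of a number. In the vehicle arrays this order held for 4 of the 5 genes, with Iigp1 at -0.18, and in the TGF-β3 arrays for all 5. This step was not tested. Both number 1 arrays exceeded the other 4 arrays in 5 of the 5 genes, and in 15.1% of all genes. In limma with a treatment term 5 of the 5 were past an adjusted p of 0.05 and higher in number 1, with 1.37% of all genes (0.571% were lower). In all, 405 genes were past this threshold, and 0 were in a refit that read each gene from its brightest probe set. Without vehicle 1 the mean number 1 difference of the 5 GTPases was 1.02 in place of 1.19. The list counts given below rest on the fit that gave 405 genes. Its error is how far the difference between TGF-β3 and vehicle varies over the numbers, moderated over all genes. Number 1 is a single number, so no call of this comparison carries a replicate error for the number. These values had been seen when the genes were chosen, and the counts are a description.

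Over all genes the members were at the upper end of both differences. Of 20848 genes, 151 had a treatment difference of at least 0.34 and 59 a number 1 difference of at least 0.83, the lowest values among the members, and 45 had both. The 2 differences come from the same 6 arrays, so they are set side by side with no correlation.

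**Figure D2:**
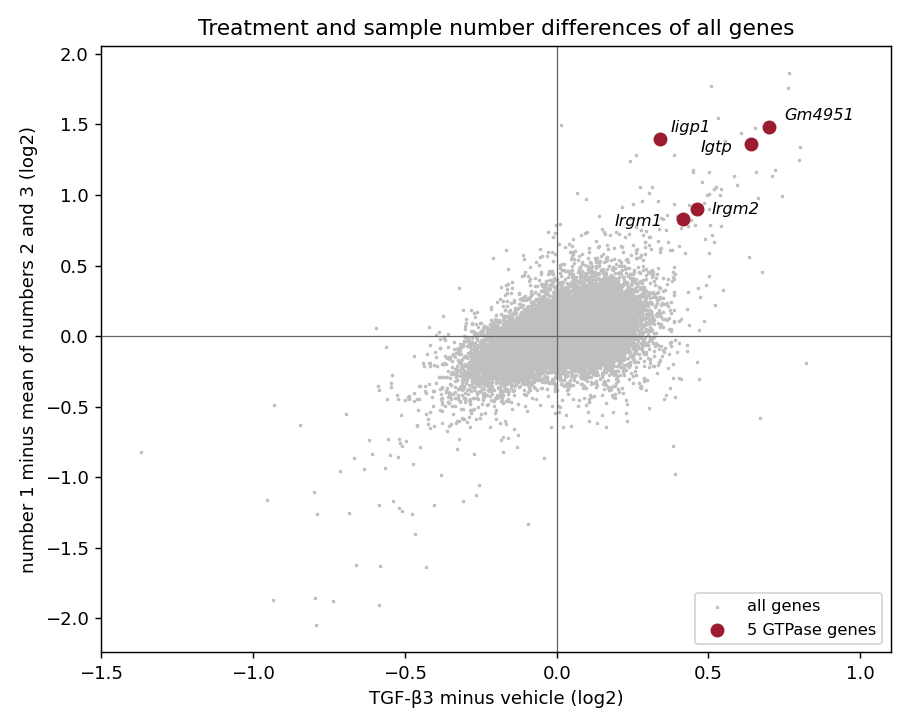
Difference between TGF-β3 and vehicle means (horizontal axis, log2) and between number 1 and the mean of numbers 2 and 3 (vertical axis, log2), with 1 grey point per gene and the 5 GTPase genes as red points. The red points lie at 0.34 to 0.70 and at 0.83 to 1.48, outside the dense cloud of genes.

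The probe sets behind these means mostly told the same order. Of the 14, 12 were higher with TGF-β3 in all 3 numbers (17.4% of all probe sets with a single symbol were), and 13 had both number 1 arrays above the other 4 (11.3% of all). The 3 probe sets of Irgm1 differed between groups by 0.39 to 0.44. For Igtp, 10376328 gave 0.98 and 10376327 gave 0.39, with 1.60 and 0.35 in number 3. Both exceptions to the treatment direction were in Iigp1: 10455962, described above, and 10455966, which stayed between 4.93 and 5.72, near the lower quartile of all probe sets. The widest span of any was that of 10455964 of Iigp1, 7.59 on TGF-β3 1 and 3.73 on vehicle 3. Irgm2 and Gm4951 rest on 1 probe set each. Probe sequences were not used here, and related genes may share probes, which was not tested.

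**Figure D3:**
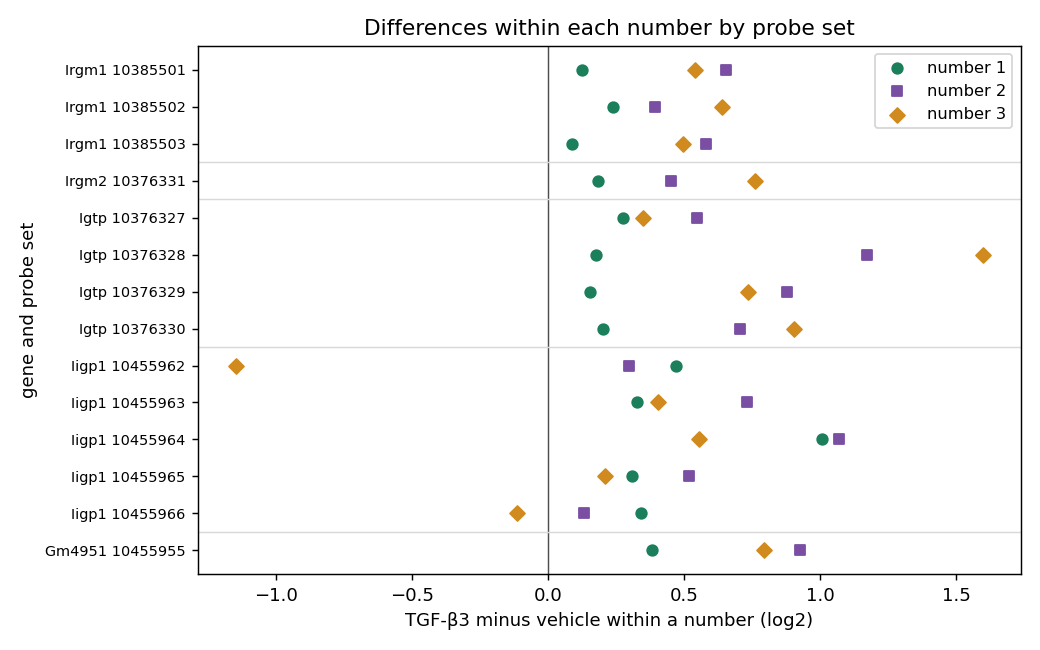
Difference between TGF-β3 and vehicle within numbers 1 (circles), 2 (squares) and 3 (diamonds), in log2 units on the horizontal axis, for each of the 14 probe sets on the vertical axis. Most points lie right of 0, with 10455962 of Iigp1 in number 3 at -1.15 as the farthest exception.

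Other members of the GTPase family followed number 1 in part. Of 14 listed, 9 were measured, 7 of them were higher with TGF-β3 in all 3 numbers (24.0% of all genes were; median difference 0.16), and 0 passed in limma. In the number comparison 5 of the 9 passed, all higher in number 1, as did 1.37% of all genes, with a median of 0.52 against 0.00 for all genes. Ifi47 (also called Irg47), a GTPase of the effector branch, had 9.20, 8.58 and 7.77 on the vehicle arrays and 9.47, 8.72 and 8.73 on the TGF-β3 arrays, so it was highest in number 1. Also past the threshold were 9930111J21Rik2 (0.52), Gm12250 (0.54), the gene of the effector Irgb10, Gm12185 (0.52) and Gm5431 (0.41). Gm5431, Gm12250, with 1 probe set, and Gm12185 had low vehicle means of 4.65, 5.18 and 5.47, and 9930111J21Rik2 had 7.73. The effector gene Tgtp1, with 1 probe set, differed by 0.78 and did not pass, nor did Irgq (0.30), Irgc1 (0.04), a gene of the testis, or Gm4841 (0.04). Their vehicle means were 5.75, 5.05, 5.32 and 6.69.

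Of the interferon genes, Ifng and Ifnb1 were looked at, and both had low signals. Ifng, the gene of interferon gamma, had signals of 5.36, 5.46 and 5.53 on vehicle arrays and 5.33, 5.37 and 5.25 on TGF-β3 arrays, a range of 0.28 log2 units close to the lower quartile. Ifnb1, the gene of interferon beta, stayed between 5.07 and 5.38. The interferon gamma receptor genes Ifngr1 and Ifngr2 exceeded numbers 2 and 3 in number 1 by 0.16 and 0.12 and did not pass.

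Of 11 measured genes of interferon gamma, its receptor and its relay, 2 passed as higher in number 1, beside 1.37% of all genes. The list had a median number difference of 0.16, and 0 passed as lower. Irf1, a transcription factor that carries the interferon gamma response, had 8.89, 8.25 and 8.11 on the vehicle arrays and 8.85, 8.49 and 8.44 on the TGF-β3 arrays. Number 1 thus exceeded the others by 0.54, while its own TGF-β3 array was not above its vehicle array. The feedback inhibitor gene Socs1 was the other, at 0.50. Irf8 (0.07) and Nlrc5 (0.21), the activator of MHC class I genes, did not pass, although p-values above the threshold do not show equal signals. In the list of the type I interferon receptor and ISGF3, the complex that binds the ISRE, 3 of 8 passed. All 3 were higher in number 1, beside 1.37% of all genes: Stat2 at 0.93, Irf9 at 0.59 and Irf7 at 1.16. With TGF-β3 against vehicle 0 of the 11 and 0 of the 8 passed, as did 0.0% of all genes. The median differences were 0.08 and 0.14. In all 3 numbers, 3 of the 11 and 3 of the 8 were higher with TGF-β3, beside 24.0% of all genes. Those 3 of the 8 were Stat2, Irf9 and Irf7, with differences of means of 0.44, 0.50 and 0.66.

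The loading of these GTPases onto vacuoles depends on autophagy genes. Of 17 genes of autophagy and ubiquitin-like conjugation, 1 passed as higher in number 1, beside 1.37% of all genes: Trim21 (0.49), a ubiquitin ligase gene that interferon induces. Atg5, part of the conjugation machine that loading requires, was 0.19 higher in number 1 and 0.17 higher in TGF-β3. Traf6, a ubiquitin ligase gene, was 0.04 and 0.20 higher, and neither gene passed in either comparison. Of the 17, 7 were higher with TGF-β3 in all 3 numbers, beside 24.0% of all genes, and 0 passed in that comparison. Atg3 had the largest treatment difference of the list, 0.35, with -0.035, 0.272 and 0.802 in numbers 1, 2 and 3. Among genes of the ubiquitin-like proteins that are conjugated, Gabarapl1 was 0.38 and Map1lc3a 0.19 higher in number 1, while Map1lc3b, Gabarapl2 and Gabarap differed by 0.01, 0.00 and -0.04, and none of these passed. The guanylate-binding proteins, a sister family of interferon-induced GTPases, had 6 of 9 past the threshold, all higher in number 1 (median 1.01), beside 1.37% of all genes. Of the 9, 6 were also higher with TGF-β3 in all 3 numbers, beside 24.0% of all genes, and 0 passed in that comparison. Gbp5 stood at 4.56 to 4.93 on all arrays.

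In the number comparison 1.37% of all genes passed as higher in number 1 and 0.571% as lower. Of 10 macrophage markers 0 passed as higher and Csf1r passed as lower (-0.42). Of 10 T and NK cell markers 0 passed. At these shares 0 of 10 is usual for any 10 genes, so nothing about other cells is read from it. The collagen genes Col1a1 and Col1a2 passed as lower in number 1, with -0.64 each, while the remaining fibroblast markers and the 10 mammary epithelial markers did not pass. The part of these differences in the GTPase values was not tested.

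The genes whose signals ran most like the mean of the 5 GTPases were searched among 127 genes with at least 3 probe sets and a range of at least 1 log2 unit, members left out. The 8 most alike had Pearson correlations of 0.996 to 0.998 over the 6 arrays, and 76 of the 127 were above 0.9. They were Rnf213, a giant ubiquitin ligase gene, Phf11d, Gbp2, Apol7a, Tap1, a peptide transporter of antigen presentation, Tor3a, Znfx1, a helicase gene, and Usp18, the protease gene that removes ISG15. All 8 showed the array order of Irgm1. Phf11d differed most between numbers, by 1.44, and Rnf213 least, by 0.70. Between groups their differences lay between 0.26 for Znfx1 and 0.61 for Phf11d. The arrays share numbers and treatment, so this likeness restates the pattern by which the genes were searched.

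**Figure D4:**
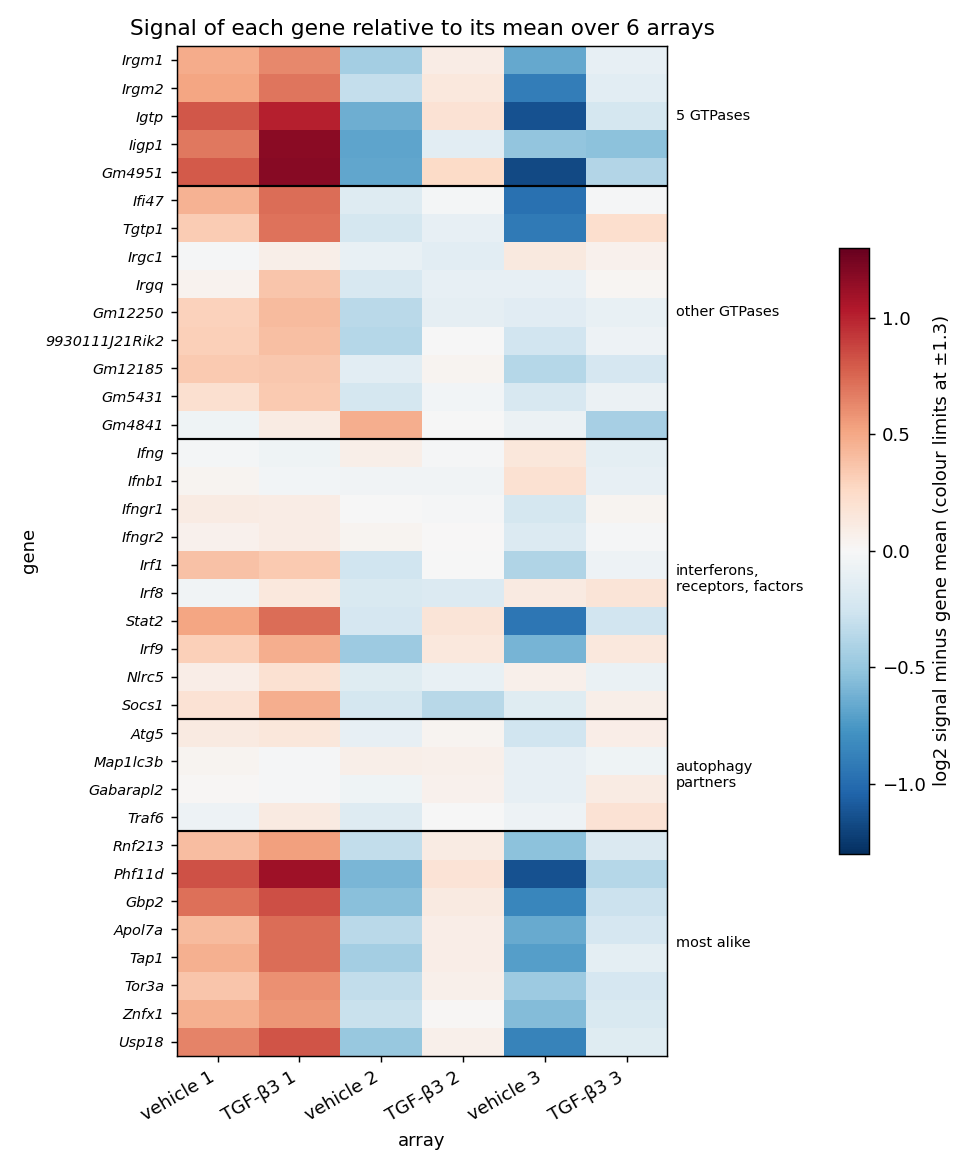
Log2 signal minus the gene's mean over the 6 arrays (colour, red above and blue below, limits at 1.3 log2 units) for the arrays in columns and the genes in rows. The 5 GTPases and the 8 genes most alike are red on both number 1 arrays and deepest blue on vehicle 2 or 3, while Ifng, Ifnb1, Map1lc3b and Gabarapl2 stay pale; Gabarapl1 and Map1lc3a are not drawn.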

How the data were processed

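Arrays of 3 vehicle and 3 TGF-β3 samples of EpH4 cells were analysed, with groups and numbers from the sample titles. The authors deposited log2 signals of 241576 probe sets, which per the submitters' processing notes came from RMA in Affymetrix Power Tools (no version given in the sources used here). Signals ran from 2.96 to 13.07 and array medians from 6.56 to 6.64. The number of arrays limits the precision. Names came from the platform's probe table, updated through RefSeq's GRCm38.p6 gene table (18496 of 20893 symbols current, 2354 updated, 43 kept as given). Probe sets with several symbols (5107) or not listed (23108) were left out, and there was no filter on low signal.

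Both contrasts were fitted over all 20848 genes in limma 3.58.1 under R 4.3.3 (eBayes moderation, two-sided, Benjamini-Hochberg adjustment, threshold 0.05): TGF-β3 minus vehicle without a block, and number 1 minus the mean of numbers 2 and 3 with a treatment term. The scripts were tested on simulated data. The deviations of same-numbered arrays from their group means correlated at 0.62, 0.41 and 0.22, so the numbers were taken as pairs, least securely number 3. The labels do not assign the numbers to experiments, and separate cultures are stated only as 3 experiments. Named genes were the 5 members, all measured genes of the other GTPase list and the 8 genes most alike. Some genes of the interferon and autophagy lists were also set to be named. Others are named as passing members of a list, as markers or, like Gbp5, Gabarapl1, Map1lc3a and Gabarap, as further members of a list. These others were named after their values were seen. The members, lists, contrasts and rule for naming were chosen with earlier results of these data known. Python 3.11.15 with pandas 2.3.3 served for the tables, and matplotlib 3.10.9 drew the plots.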

Additional observations from a re-analysis of the deposited data

How the results depend on the processing

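The mean treatment difference of the 5 GTPases was above 0 under every alternative run, and lay between 0.17 and 0.97 with 1 array left out and between 0.44 and 0.63 under the others. The sign turned for 1 gene under 1 alternative, Iigp1 without TGF-β3 1 (-0.163, the lowest with 1 array left out, against a highest of 0.768). The limma count of 0 genes (1076 at an unadjusted p under 0.05) became 2 with the replicate block, 2 without number 1 in both groups, 1 with the replicate block and quantile normalization (chosen after seeing the data) and 0 to 1 with 1 array left out, and 0 of the 5 members were past the threshold in each. The mean number 1 difference of 1.19 was 1.37 without number 2 in both groups, 1.017 without number 3 in both groups and 1.02 to 1.367 with 1 array left out. Its count of 405 genes became 38 without a treatment term (1 of the 5 members past the threshold), 63 with the median probe set (3 of 5), 0 with the brightest probe set (0 of 5, with 2820 genes at an unadjusted p under 0.05), 732 without number 2, 1353 without number 3, 112 without vehicle 1 (4 of 5) and 3877 without TGF-β3 3, the ends with 1 array left out, between which lay 670 without vehicle 2 and 743 without vehicle 3. The ISRE core spelled 1 base shorter was in the same 3 promoters, and spelled 1 base longer in 1.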
